A study of Mus musculus with 8 samples.

Results

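The genes described here encode PYGO1 and the proteins that work beside it in canonical Wnt signaling, followed through the histone mark H3K4me3 at their promoters. The 9 genes are *Pygo1*, its paralog *Pygo2*, *Bcl9*, *Bcl9l*, *Ctnnb1*, *Tcf7l1*, *Tcf7l2*, *Axin2* and *Lgr4*. They were chosen by name, with the fall of H3K4me3 at the *Pygo1* promoter already known, and every peak that the deposited annotation assigns to them was taken. All 9 genes have a listed peak, and together they hold 19 of the 35486 listed peaks, which are spread over 20871 genes. 10 of the 19 peaks lie within 1 kb of a transcription start site and 9 lie farther away.

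H3K4me3 was profiled in CD45-CD31-EpCAM+ tumor cells sorted from the lungs of 2 KL mice, an autochthonous lung tumor model with *Lkb1*fl/fl alleles (replicates 1 and 2) and 2 KLG4m/m mice, which add *Gpx4*m/m to the KL genotype (replicates 3 and 4), and each library has its own label. Both groups carried the KL alleles, received intranasal Ad-Cre, an adenovirus that carries the Cre recombinase, at 8 to 10 weeks of age, were given tamoxifen for 2 weeks from week 5, rested for 3 weeks, and were sampled 10 weeks after Ad-Cre. The m allele places *rox* sites around exons 5 to 7 of *Gpx4* next to a Cre-activated, CAG-driven DreERT2, so that tamoxifen deletes these exons only in cells in which Cre has acted. The legend and labels give 2 mice per group, whereas the methods name 3 mice. Whether each library came from a separate mouse is therefore not settled, and if libraries share a mouse the SE and p-values cover less than the spread between mice. The H3K27ac libraries were not analysed here.

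Canonical Wnt signaling turns on the stability of beta-catenin, the product of *Ctnnb1*. Without a Wnt ligand a destruction complex built on AXIN marks beta-catenin for decay, and with one the protein enters the nucleus and binds DNA-bound TCF/LEF factors. There BCL9 or BCL9L bridges beta-catenin to a Pygopus protein (PYGO1 or PYGO2), whose PHD finger binds histone H3 methylated at lysine 4, the mark measured here. In the lung this pathway is known for its part in the renewal of alveolar epithelial cells and in lung tumors. H3K4me3 itself lies mainly over the start sites of genes that are active or poised.

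The base composition of the promoters is set beside the results below. The 250 bases upstream of the RefSeq start site are therefore shown for the 2 promoters that fell (*Pygo1* and *Lgr4*) and for the paralog *Pygo2*. They are also shown for *Bcl9*, whose promoter is GC-rich like that of *Pygo1* but whose peaks were not called. The sequences are from RefSeq on GRCm38.p6 and read 5′ to 3′ on the strand of the gene. Capitals mark CG dinucleotides. *Pygo1* lies at chr9:72925395-72925644 on the plus strand, *Bcl9* at chr3:97227365-97227614 on the minus strand, *Pygo2* at chr3:89429964-89430213 on the plus strand (the most upstream of its 3 RefSeq windows), and *Lgr4* at chr2:109917397-109917646 on the plus strand.
*Pygo1*: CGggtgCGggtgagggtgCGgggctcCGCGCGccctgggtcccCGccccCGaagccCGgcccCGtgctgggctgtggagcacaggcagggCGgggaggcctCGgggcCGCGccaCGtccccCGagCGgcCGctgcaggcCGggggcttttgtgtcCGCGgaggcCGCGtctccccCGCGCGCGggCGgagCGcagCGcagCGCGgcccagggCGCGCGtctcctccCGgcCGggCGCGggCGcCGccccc
*Bcl9*: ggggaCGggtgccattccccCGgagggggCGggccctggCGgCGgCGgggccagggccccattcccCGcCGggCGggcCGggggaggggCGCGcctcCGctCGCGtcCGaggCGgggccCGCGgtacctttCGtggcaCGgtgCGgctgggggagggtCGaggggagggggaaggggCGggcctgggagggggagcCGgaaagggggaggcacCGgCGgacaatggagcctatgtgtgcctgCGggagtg
*Pygo2*: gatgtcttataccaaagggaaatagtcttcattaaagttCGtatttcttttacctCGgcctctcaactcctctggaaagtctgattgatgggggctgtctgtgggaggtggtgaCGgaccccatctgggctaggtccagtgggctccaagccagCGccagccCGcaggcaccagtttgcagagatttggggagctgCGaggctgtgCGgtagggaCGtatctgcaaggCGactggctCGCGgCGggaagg
*Lgr4*: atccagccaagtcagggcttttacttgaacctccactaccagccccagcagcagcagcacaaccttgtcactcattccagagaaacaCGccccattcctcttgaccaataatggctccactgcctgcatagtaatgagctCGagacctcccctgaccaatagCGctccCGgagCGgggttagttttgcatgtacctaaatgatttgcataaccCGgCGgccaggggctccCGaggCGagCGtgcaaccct

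The *Pygo1* window was 84.0% GC with 41 CG dinucleotides, more GC-rich than 99.7% of the 32851 RefSeq windows of this length, whose median was 52.4% GC and 6 CG. *Bcl9* reached 79.2% GC with 28 CG and *Lgr4* 55.6% with 10. The printed *Pygo2* window was 56.8% GC with 12 CG, and its other windows were 76.0% and 73.2% GC. 8 of the 9 genes had 12 windows in all, and *Bcl9l* had none. Some windows of *Pygo2* overlap each other, as do those of *Ctnnb1*, so that 1 site can count in more than 1 window below. The letters of a TCF/LEF site (CTTTG and then 2 bases that are each A or T, on either strand) stood in 1 member window, the downstream one of *Tcf7l2*, against 14.8% of all windows. A CCAAT box (CCAAT, either strand) stood in 4 member windows, with 2 copies in *Lgr4* and none in *Pygo1* (33.8% of all windows). A GC box (GGGCGG, either strand) stood in 9 member windows, with 4 copies in *Pygo1*, 3 in *Bcl9* and none in *Lgr4* (32.7% of all windows). None of the 3 motifs contains another, and a match is a description of the sequence only.

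The libraries held 3244495 to 3463731 reads in the listed peaks. Levels are given as counts per 1000000 of these reads with TMM scaling (CPM), whose factors lay between 0.9954 and 1.004, as the mean ± SD of the 2 libraries of a group. Because each library is scaled to its own peaks, a change by the same factor everywhere would not be seen. A peak was called when edgeR's quasi-likelihood test gave an adjusted p under 0.05 over all peaks. Folds are KLG4m/m over KL on the log2 scale, with the standard error (SE) of the fit. Some cell type markers moved with the genotype. *Epcam*, the surface protein of the sort, had less signal in KLG4m/m cells (log2 fold -0.82, adjusted p = 1.56e-06 by edgeR over all genes), as did *Cdh1*, the epithelial cadherin (-0.38, adjusted p = 0.00396). 7 of 8 epithelial markers had a peak (not *Sftpc*), and their summed signal was 317 to 318 CPM in KL and 268 to 276 CPM in KLG4m/m cells. The other 5 of them were not called, with log2 folds of -0.28 for *Krt8*, -0.13 for *Nkx2-1*, 0.06 for *Cldn7*, 0.07 for *Krt18* and 0.11 for *Krt19*. The genes of the markers that the sort selects against were not called either, *Ptprc* (CD45) at 0.22 and *Pecam1* (CD31) at 0.19. 8 of 9 immune markers had a peak (not *Cd79a*), at 295 to 297 CPM in KL and 349 to 357 CPM in KLG4m/m cells, with *Itgam*, *Adgre1* and *Cd3d* among those called higher and *Lyz2* called lower. All 6 endothelial markers had a peak (170 to 203 CPM in KL, 158 to 185 CPM in KLG4m/m, *Tek* called lower), as had 3 of 6 fibroblast markers (64.4 to 71.7 and 69.3 to 73.1 CPM, *Pdgfrb* called higher; *Col1a2*, *Col3a1* and *Dcn* had none). The part of the cell mixture in the results below was not tested, and in such pooled cells fewer cells of a type cannot be told apart from less mark per cell. The *Gpx4* promoter peak lies outside the deleted exons, in a locus with an inserted CAG promoter, and so checks nothing about the deletion. Its reads numbered 242 and 236 in KL and 304 and 301 in KLG4m/m cells. This peak was called higher (log2 fold 0.40, adjusted p = 0.00854 by edgeR over all peaks).

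H3K4me3 at the *Pygo1* promoter was the largest difference among the 19 peaks. *Pygo1* encodes the Pygopus protein that reads methylated H3 lysine 4 beside beta-catenin, and its only listed peak (chromosome 9, 72832538 to 72832938, in the positions of the deposited table) covers the start site. KL replicates 1 and 2 had 38 and 71 reads there, and KLG4m/m replicates 3 and 4 had 8 and 10 reads. Both KLG4m/m libraries were thus below both KL libraries, and both still held reads. The level was 15.7 ± 6.73 CPM in KL and 2.71 ± 0.549 CPM in KLG4m/m cells (SD, n = 2 each), a fitted 5.75-fold difference with a log2 fold change of -2.52 (SE 0.351). Pooled over the libraries of a group, 109 KL reads stood against 18 KLG4m/m reads, a ratio of 5.81. Its exact 95% interval was 3.52 to 10.2, which covers counting error only and not the spread between libraries. The interval also takes no account of the choice of this peak with its fall known.

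The position of the *Pygo1* peak among all promoters changed with the genotype. Of the 17073 listed peaks within 1 kb of a start site, 25% had a lower mean than *Pygo1* in KL cells and 1.17% in KLG4m/m cells. 9 of these peaks had a log2 fold change below that of *Pygo1*. *Pygo1* was thus among the weaker listed promoters in KL cells and near the bottom in KLG4m/m cells. As the peak was chosen with its fall known, these ranks restate that fall and are no separate support for it. They also hold among listed peaks only. The KL libraries differed from each other by 1.87-fold at this peak, and only 0.563% of the 6755 peaks with a KL mean within 1.5-fold of it had a ratio between the KL libraries at least as wide. Leaving out KL replicate 2 gave a log2 fold change of -2.0, and leaving out replicate 1 gave -2.91, both still called, whereas without either KLG4m/m library no peak of the table was called.

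*Pygo2*, the paralog that is the more widely expressed Pygopus gene, showed no such difference. Its peak, also over the start site (chromosome 3, 89337537 to 89337937), held 249 and 273 reads in KL and 247 and 239 reads in KLG4m/m cells. The libraries of the groups overlapped. The means were 75.1 ± 4.95 and 72.8 ± 1.67 CPM, with a log2 fold change of -0.05 (SE 0.0979). Over peaks of the same length (400 bp), the *Pygo2* promoter thus carried more of the mark than that of *Pygo1* already in KL cells, and in both groups it stood highest among the peaks nearest to the start of each of the 9 genes.

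**Figure D1:**
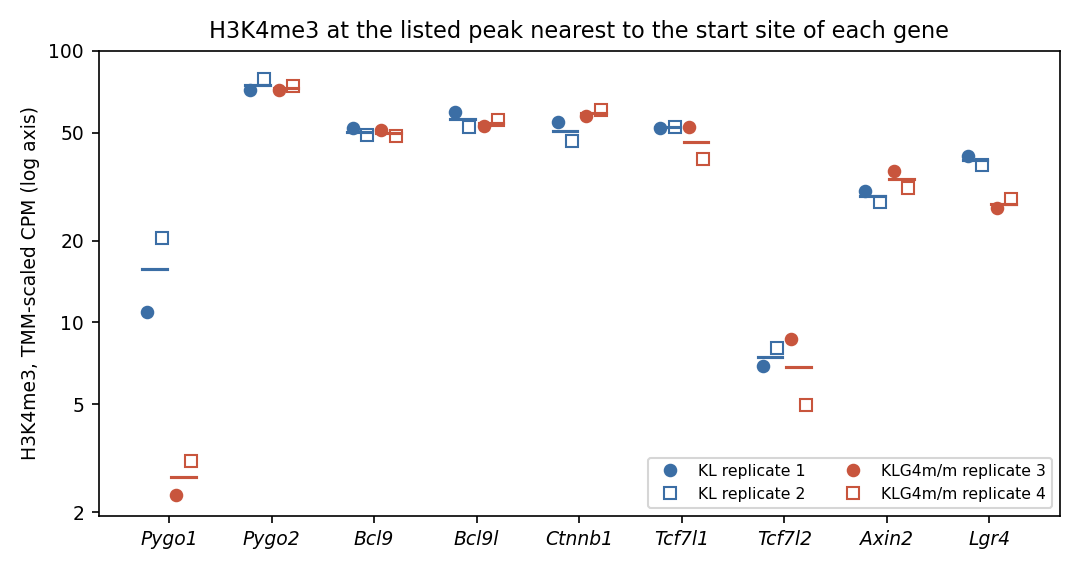
H3K4me3 signal in each library (TMM-scaled CPM, log axis) at the listed peak nearest to the start site of each gene, with KL in blue, KLG4m/m in red and short lines for the group means. *Pygo1* falls from 15.7 to 2.71 CPM and *Lgr4* from 39.6 to 27.4 CPM with no overlap between the groups, while *Pygo2* stays at 75.1 and 72.8 CPM.

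Over the 19 peaks, 2 were called lower in KLG4m/m cells, those of *Pygo1* and *Lgr4*, and 0 were called higher. Among all peaks 5.52% were called lower and 3.10% higher, and among peaks within 1 kb of a start site 8.43% were called lower and 2.89% higher. Since the genes were chosen with this comparison known, nothing is read from the count. The 17 other peaks had log2 fold changes from -0.79 to 0.62, and the 8 other peaks within 1 kb of a start ranged from -0.17 to 0.21. The median log2 fold change was -0.05 over the 19 peaks and 0.01 over all peaks. The KLG4m/m libraries were both below the KL libraries at 3 peaks and both above at 6, and the groups overlapped at 10. Such separation is common here, since 26.6% of all peaks were lower and 27.5% higher in both KLG4m/m libraries.

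**Figure D2:**
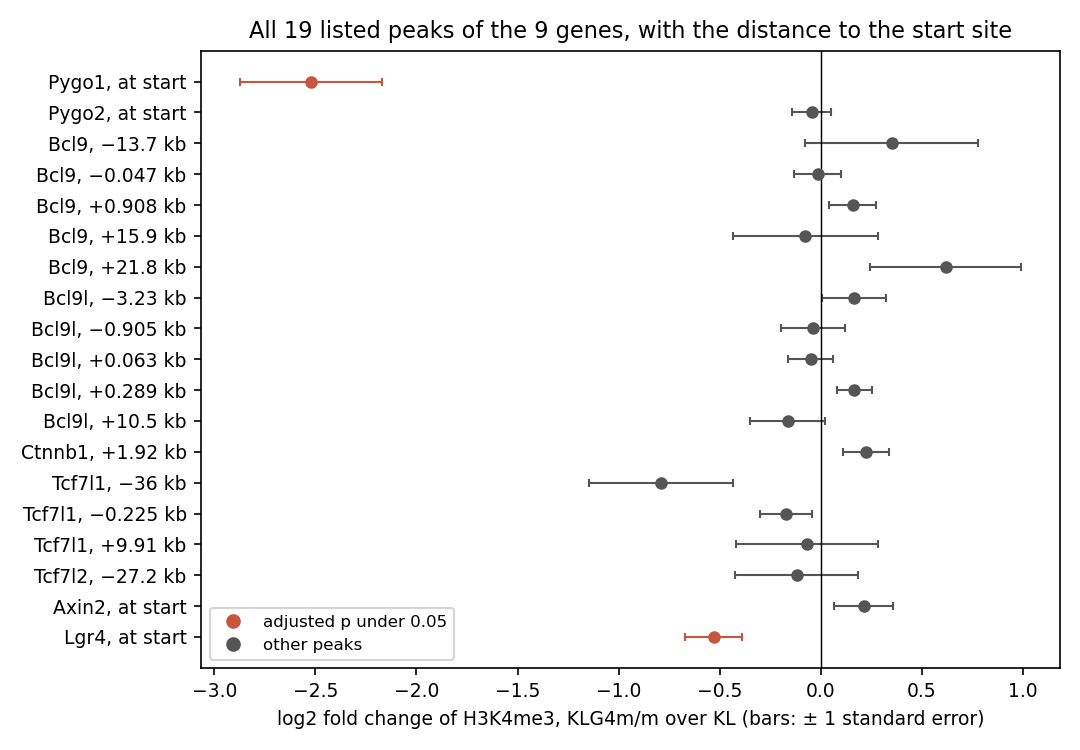
Log2 fold change of H3K4me3 (KLG4m/m over KL) with 1 standard error on either side for the 19 peaks, labelled by gene and signed distance from the start site. The *Pygo1* peak at -2.52 and the *Lgr4* peak at -0.53 are the 2 called peaks, and the other peaks within 1 kb of a start lie between -0.17 and 0.21.

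BCL9 and BCL9L are the adaptors that tie Pygopus to beta-catenin, and none of the 10 peaks of their genes was called. Their log2 fold changes ran from -0.16 to 0.62. *Bcl9* has a peak 0.047 kb upstream of one start site, where KL libraries had 180 and 170 reads and KLG4m/m libraries 176 and 157 (log2 fold change -0.01, SE 0.116). Its peak 0.908 kb downstream of another start held 171 and 163 reads against 190 and 168 (0.16, SE 0.115). The larger values of *Bcl9* came from thin peaks. An intronic peak 21.8 kb from the start had 11 and 14 reads against 21 and 16 (0.62, SE 0.372), an intronic peak at 15.9 kb had 18 and 16 against 18 and 13 (-0.08), and an intergenic peak 13.7 kb upstream had 13 and 9 against 12 and 15 (0.35, SE 0.426). 

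The strongest peak of *Bcl9l*, 0.289 kb from a start site, held 305 and 329 reads in KL and 362 and 322 in KLG4m/m cells (log2 fold change 0.17, SE 0.088). The peak 0.063 kb from another start held 207 and 182 reads against 182 and 179 (-0.05, SE 0.113). The remaining *Bcl9l* peaks lay 0.905 kb upstream (99 and 86 against 95 and 78 reads), in an intron (83 and 82 against 97 and 81) and in the 3′ UTR, 10.5 kb from the start (63 and 77 against 58 and 62). Each of them moved by less than 2 standard errors. Summed over its 5 peaks, *Bcl9* had a log2 fold change of 0.09 (SE 0.0825) and *Bcl9l* of 0.06 (SE 0.061).

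*Ctnnb1* encodes beta-catenin, and its single listed peak lies 1.92 kb from the start site. The peak held 191 and 161 reads in KL and 199 and 196 in KLG4m/m cells, so that the groups did not overlap but lay close to each other. The means were 50.7 ± 6.06 and 59.2 ± 2.10 CPM (log2 fold change 0.22, SE 0.115, not called).

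TCF7L1 and TCF7L2 are TCF/LEF factors that carry beta-catenin on DNA, TCF7L1 being known mainly as a repressor. The *Tcf7l1* promoter peak, 0.225 kb upstream of the start, held 181 and 182 reads in KL and 181 and 129 in KLG4m/m cells (52.2 ± 0.25 and 46.2 ± 8.87 CPM, log2 fold change -0.17, SE 0.127). KLG4m/m replicate 3 stood at the KL level and replicate 4 below it. An intergenic *Tcf7l1* peak 36.0 kb upstream held 29 and 18 reads against 14 and 12 (-0.79, SE 0.356), the lowest fold among the peaks that were not called, and an intronic peak at 9.91 kb held 15 and 21 against 19 and 14 (-0.07). *Tcf7l2* had 1 listed peak, in an intron 27.2 kb from the assigned start, and no listed peak at its start. This peak held 24 and 28 reads in KL and 30 and 16 in KLG4m/m cells (-0.12, SE 0.306), with the KL values between those of the KLG4m/m libraries. 5 of the 19 peaks, 3 of *Bcl9* and the intronic and intergenic ones of *Tcf7l1*, had under 30 reads in every library, and at their standard errors of 0.352 to 0.426 a difference of the size seen at *Lgr4* would not be detectable.

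*Axin2* is a feedback inhibitor and one of the most used readouts of beta-catenin activity. Its promoter peak held 106 and 96 reads in KL and 124 and 101 in KLG4m/m cells (29.1 ± 2.01 and 33.6 ± 3.32 CPM, log2 fold change 0.21, SE 0.147, not called). The groups did not overlap, with KLG4m/m replicate 4 just above KL replicate 1 after scaling.

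*Lgr4* encodes a receptor for R-spondins, which raises the sensitivity of a cell to Wnt ligands. Its peak over the start site (chromosome 2, 109747796 to 109748196) held 143 and 132 reads in KL and 91 and 92 reads in KLG4m/m cells. The groups were well apart and the libraries within each group were close. The means were 39.6 ± 2.2 and 27.4 ± 1.48 CPM, a log2 fold change of -0.53 (SE 0.142) that was called lower. The fold moved only from -0.59 to -0.47 on leaving out a library, but the call was lost with DESeq2, with quantile-normalized limma values and without KL replicate 1 or either KLG4m/m library.

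Peaks near *Pygo1* on chromosome 9 are given beside it. Within 250 kb of the *Pygo1* peak lay 19 other listed peaks, and edgeR called 0 of them (4 at an unadjusted p under 0.05, and 0 called by DESeq2 or limma). Their log2 fold changes ran from -0.48 to 0.80 with a median of 0.09, 8 below and 11 above 0. The nearest, at the start of *Dnaaf4*, a dynein assembly factor, 33.3 kb away, held 195 and 174 reads in KL and 163 and 136 in KLG4m/m cells (-0.25, SE 0.121). The lowest of the 19 was the promoter of *Prtg*, 118 kb to the other side, with 59 and 66 reads against 50 and 36 (-0.48, SE 0.205). The promoters of *Pigb*, *Rab27a*, *Rsl24d1* and *Khdc3* ranged from -0.08 to 0.14, and those of *Ccpg1* and the gene model *Gm23567* from -0.02 to 0.30. The highest of the 19 was a *Ccpg1* peak 2.89 kb upstream of a start, with 26 and 17 reads against 35 and 37 (0.80, SE 0.279). The remaining peaks, more than 1 kb from a start, belonged to *Nedd4*, *Gm27204* and genes already named.

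**Figure D3:**
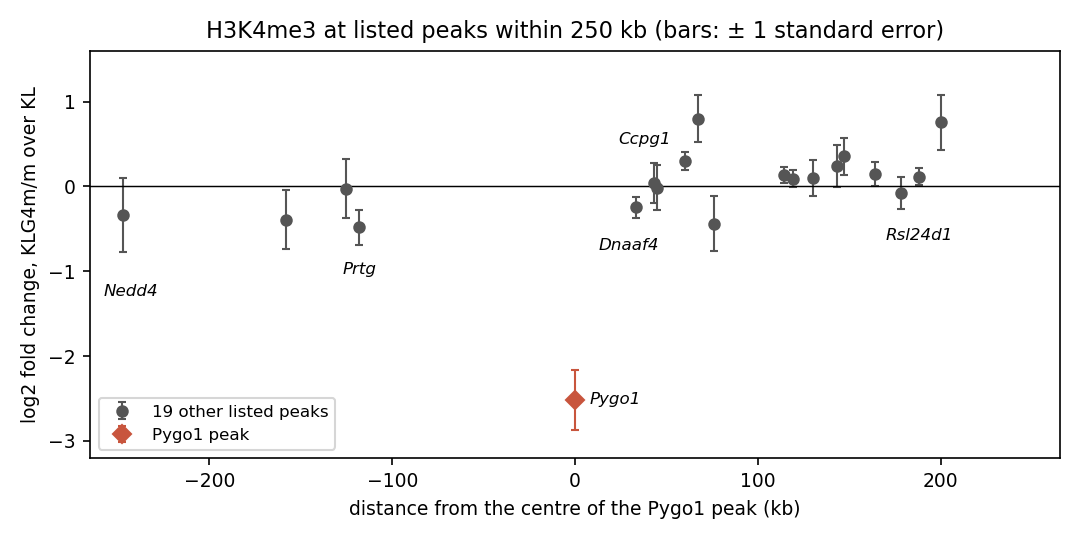
Log2 fold change of H3K4me3 (KLG4m/m over KL) with 1 standard error on either side for the listed peaks within 250 kb, against their distance in kb from the centre of the *Pygo1* peak. The *Pygo1* peak stands at -2.52 and the 19 others between -0.48 and 0.80.

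Some other promoters had almost the same levels in the 4 libraries as *Pygo1*, by the Euclidean distance between log2(CPM + 1) values over 4 libraries, and they are a description with no test. The closest was *Zfp800*, a zinc finger gene, a peak of 25 and 67 KL reads against 10 and 10 KLG4m/m reads (distance 0.596). *Rnf217*, a RING finger gene, held 36 and 61 against 15 and 11 (0.730). *Gab2*, an adaptor of receptor tyrosine kinases, held 34 and 85 against 12 and 6 (0.735). At each of these 3 promoters KL replicate 2 was well above replicate 1, as at *Pygo1*, a likeness that the choice by level favors. *Insm1*, a neuroendocrine transcription factor, held 38 and 43 against 7 and 7 (0.786), and *Gse1* 41 and 43 against 9 and 14 (0.796), and here the KL libraries were close.

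The fall of H3K4me3 was more frequent at GC-rich promoters, the class to which *Pygo1* belongs. Among 9027 genes with 1 RefSeq window and a peak within 1 kb, the log2 fold change of the nearest peak correlated weakly with the GC content of the window (Spearman's rho -0.16, Pearson's r -0.17, across genes of the same 4 libraries, which are not independent replicates). In the 903 genes of the highest GC decile, which holds *Pygo1*, *Bcl9* and *Tcf7l1*, 22.4% of the peaks were called lower and 1.44% higher, with a median log2 fold change of -0.16. In the ninth decile, which holds *Axin2*, 13.0% were called lower, and in the fourth, which holds *Lgr4*, 5.65%. The fifth percentile of the highest decile was -1.07, and 2 of its genes had a lower log2 fold change than *Pygo1*. The libraries of a group also differed with GC content, with a Spearman's rho across the same genes of 0.08 for KL replicate 2 over replicate 1 and -0.11 for KLG4m/m replicate 4 over replicate 3. In the highest decile the median log2 ratio was 0.06 for KL replicate 2 over replicate 1 and -0.05 for KLG4m/m replicate 4 over replicate 3. The part of base composition in the result at *Pygo1* was not tested. *Bcl9* and *Tcf7l1* in the same decile were not called, like most peaks of that decile.

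**Figure D4:**
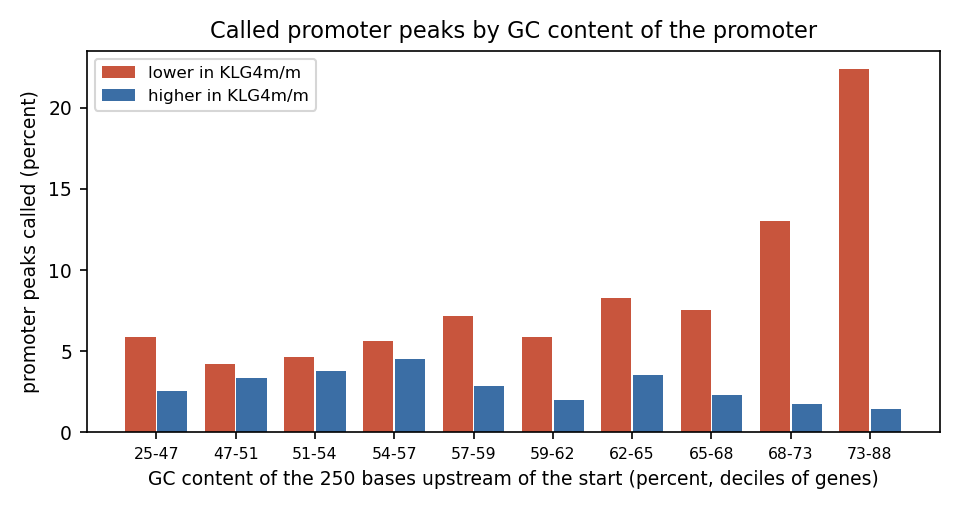
Percent of promoter peaks called lower (red) or higher (blue) in KLG4m/m cells, by decile of the GC content of the 250 bases upstream of the start, over 9027 genes. The share called lower is 22.4% in the highest decile, which holds *Pygo1*, and 5.65% in the fourth, which holds *Lgr4*.

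Other genes of the pathway were read from the fit over genes, in which the reads of all peaks of a gene are summed. In that fit 9.63% of all genes were called lower and 5.38% higher, with a median log2 fold change of 0.00. Of the 106 genes on 6 lists, 97 had a peak, and 18 of these (18.6%) were called lower and 2 (2.06%) higher, with a median of -0.09. With DESeq2 4 were lower (*Wnt7a*, *Dvl1*, *Kremen1* and *Notum*) and 0 higher, so that the other calls named below were lost with DESeq2. limma on log2(CPM + 1) called 18 lower and 2 higher, and quantile-normalized limma 10 lower and 2 higher. Without KL replicate 2 edgeR called 9 lower, and the calls of *Wnt2b*, *Wnt5b*, *Wnt8a*, *Wnt9a*, *Fzd3*, *Znrf3*, *Ctnnbip1*, *Apcdd1*, *Ccnd1* and *Sp5* were lost. Without KL replicate 1 it called 13 lower, and those of *Wnt5b*, *Wnt8a*, *Tnks2*, *Sfrp4*, *Ccnd1* and *Sp5* were lost. Without either KLG4m/m library it called 0. Of the genes with 1 RefSeq window and a promoter peak, 24 lay in the top 2 GC deciles, where 6 nearest peaks (25%) were called lower against 17.7% of all such genes, and 28 lay in the other deciles, where 2 (7.14%) were called lower against 6.16%. The adjusted p-values below are from edgeR over all genes.

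Of the Wnt ligands and R-spondins 22 of 25 genes had a peak, 4 were lower, 1 was higher and the median was -0.28. *Wnt7a*, a Wnt ligand, fell from 97 and 93 to 36 and 42 reads (log2 fold change -1.23, adjusted p = 6.9e-07), *Wnt9a* from 29 and 49 to 25 and 11 (-1.06, adjusted p = 0.00845) and *Wnt2b* from 105 and 116 to 69 and 68 (-0.63, adjusted p = 0.00352). *Wnt5b* fell by 0.36 (adjusted p = 0.0456), and 1 of its 4 peaks was called over all peaks, a promoter peak that went from 42 and 72 to 17 and 19 reads. The value of *Wnt9a* moved between -1.72 without KLG4m/m replicate 3 and -0.62 without KL replicate 2 (-0.63 without KLG4m/m replicate 4). *Wnt8a*, which has no promoter peak here, was higher (0.62, adjusted p = 0.0294).

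All 19 receptor and receptor turnover genes had a peak, 4 were lower and 0 higher, with a median of -0.24. *Fzd6*, a Frizzled receptor, fell from 85 and 114 to 55 and 46 reads (log2 fold change -0.92, adjusted p = 8.24e-05) and *Dvl1*, which relays the signal from Frizzled, from 285 and 282 to 201 and 167 (-0.57, adjusted p = 1.98e-05). *Fzd3* (-0.50, adjusted p = 0.00841) and *Znrf3*, a ligase that removes Frizzled from the surface and is itself held back by LGR4 with R-spondin (-0.36, adjusted p = 0.00821), were also lower.

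The list of the beta-catenin destruction complex also holds tankyrase genes, whose products act on the complex. Of its 11 genes, 1 was lower and 0 were higher, with a median of -0.05. The lower gene was *Tnks2*, a tankyrase that promotes the decay of AXIN (log2 fold change -0.44, adjusted p = 0.0130). *Apc* had -0.16, *Axin1* -0.19 and the kinase gene *Gsk3b* 0.17, none of them called.

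The 19 other TCF/LEF factors, corepressors and nuclear cofactors all had a peak, 2 were lower and 1 was higher, with a median of -0.05. *Cdc73*, a subunit of the PAF complex known to bind beta-catenin, was lower (log2 fold change -0.60, adjusted p = 0.000720), as was *Ctnnbip1*, which blocks the binding of beta-catenin to TCF (-0.52, adjusted p = 0.0162). *Tle3*, a Groucho corepressor, was higher (0.34, adjusted p = 0.00301). *Lef1* (0.17) and *Tcf7* (0.09) were not called. The sum for *Tcf7* hid peaks that moved in opposite directions. Its start site peak fell from 59 and 99 to 32 and 40 reads (-1.07), and a peak 2.73 kb downstream rose from 84 and 71 to 98 and 115 reads (0.52), both called over all peaks.

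Secreted and cytoplasmic inhibitors had a peak in 13 of 17 genes, 4 were lower and 0 higher, with the lowest median of the lists, -0.46. *Notum*, which strips the lipid from Wnt ligands, fell from 65 and 75 to 26 and 25 reads (log2 fold change -1.40, adjusted p = 1.76e-06) and *Kremen1*, a DKK receptor, from 274 and 319 to 161 and 158 (-0.84, adjusted p = 1.06e-09). *Apcdd1* (-0.74, adjusted p = 0.0127) and *Sfrp4* (-0.67, adjusted p = 0.0174) were also lower. *Notum* and *Znrf3* both act against Wnt signaling, and beta-catenin is known to raise their transcription. *Axin2* (0.21) and *Myc* (0.02), which beta-catenin also raises, were not called, while 3 of the common Wnt target genes below were lower. The part of beta-catenin in these values was not tested.

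Common Wnt target genes had a peak in 13 of 15 genes, 3 were lower and 0 higher, and the median was 0.02. *Bmp4*, a secreted BMP ligand, fell from 144 and 139 to 92 and 85 reads (log2 fold change -0.62, adjusted p = 0.00121). *Sp5* (-0.41, adjusted p = 0.0499) and the cyclin gene *Ccnd1* (-0.25, adjusted p = 0.0237) were lower close to the threshold, and the value of *Ccnd1* at its highest peak alone was 0.02. *Myc* held 244 and 246 reads in KL and 227 and 251 in KLG4m/m cells (0.02), with the KL values between the KLG4m/m values.

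**Figure D5:**
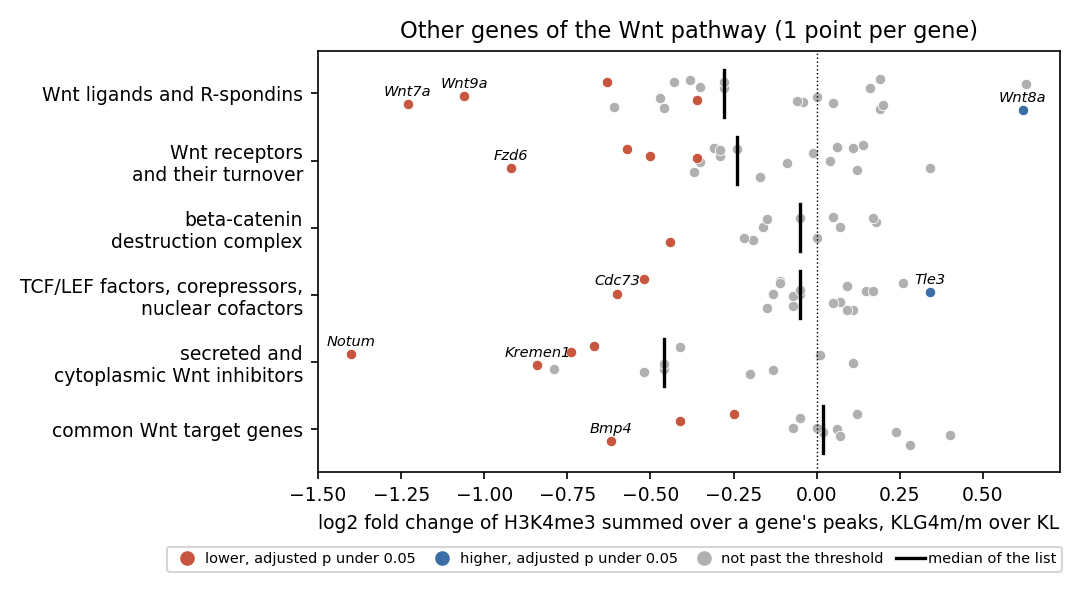
Log2 fold change (KLG4m/m over KL) of H3K4me3 summed over the peaks of each gene for the 6 lists of other Wnt pathway genes, 1 point per gene, red for called lower, blue for called higher, grey for not called and a black line for the median. The medians run from -0.46 for the inhibitors to 0.02 for the target genes, and 18 of 97 genes are called lower.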

How the data were processed

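H3K4me3 was measured by CUT&Tag, with a protocol that describes cleavage by pAG-MNase and an antibody written as anti-H4K4me3, in 4 libraries grouped by the sample labels. The authors trimmed reads with Trim Galore 0.6.10, mapped them with BWA 0.7.15, removed mitochondrial reads, reads with a mapping quality under 30 and Picard 2.17.3 duplicates, called peaks with MACS2 2.2.7.1 and assigned them to genes with HOMER 4.11.1. The deposited table holds whole read counts per peak and library, which were used here, and the authors' CPM over the reads in listed peaks. It also holds the authors' own comparison (log2 fold change and average log2 CPM, a score, p-values), which was not used, and the authors' distance to the start site in bp (per the file headers), which was. The genome build of its positions is not given in the sources used here for these files. The methods name Ensembl 94, but the positions are not those of GRCm38, so they were not compared with RefSeq coordinates.

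edgeR 4.0.16 (R 4.3.3) quasi-likelihood tests with TMM factors, without a filter or covariate, were run over 35486 peaks and over 20871 genes with reads summed over their peaks, both adjusted by the Benjamini-Hochberg method, two-sided, with a threshold of 0.05. The SE was taken as the log2 fold change divided by the square root of F. The test was also run on simulated counts, drawn with the single common dispersion that edgeR fitted to these data. Such counts give every peak the same dispersion, so the run is no check on the calls made here. Alternatives were RLE or no scaling factors, DESeq2 1.42.0, limma 3.58.1 on log2(CPM + 1) with or without quantile normalization, a filter at a mean of 10 CPM, other peaks per gene, and leaving out each library. With 2 libraries per group p-values measure the spread between these libraries only, which may be technical. Over all peaks the chi-square per degree of freedom was 1.13 for the KL pair and 1.23 for the KLG4m/m pair, little above counting error, against 2.37 to 2.80 between groups. The libraries of a group were kept as separate samples because the labels list them so. The genes named outside the 9 were taken by rule: at most 5 called genes a list by smallest adjusted p, *Tcf7*, *Lef1*, *Apc*, *Axin1*, *Gsk3b*, *Myc* and *Ccnd1*, the genes within 250 kb of the *Pygo1* peak, the model's own alleles, and the 5 promoter peaks closest to it in level. The 9 genes, the lists and the rules were chosen with earlier results of these data known. Some items that fall under these rules are not reported here.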

Additional observations from a re-analysis of the deposited data

How the results depend on the processing

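The *Pygo1* promoter peak kept its direction under every setting that tested it, with log2 fold changes from -2.91 to -2.0, and stayed called under each scaling and tool (DESeq2 -2.54, limma -2.12, quantile-normalized limma -2.04). As the peak was chosen with its fall in these libraries known, the settings are no independent test of it. Without KLG4m/m replicate 3 or 4 nothing was called among all peaks. The lone library is assumed there to vary like the other group, as it is without a KL library, where calls remained, and the cause of the difference was not tested. At an unadjusted p under 0.05 edgeR gave 3235 and 2950 peaks lower and 2251 and 2228 higher. Of the peaks of the 9 genes, 1 was lower with DESeq2 and with quantile-normalized limma (*Pygo1*) and 1 with the filter at 10 CPM (*Lgr4*, since *Pygo1* falls below the filter), and 1 of the 9 genes was lower with DESeq2 and with the filter. Leaving out 1 library gave 0 to 2 lower peaks and 0 to 2 lower genes among the 9.

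Over all peaks, 1960 were lower and 1099 higher. DESeq2 called 244 and 33, quantile-normalized limma 866 and 486, and leaving out 1 library 0 to 1459 and 0 to 702. Over all genes, 2010 were lower and 1122 higher, against 336 and 119 with DESeq2, 733 higher with the nearest peak, 725 higher with the highest peak, and 0 to 1305 lower and 0 to 649 higher on leaving out 1 library. Of the pathway genes, DESeq2 called 4 lower and 0 higher (16 and 1 at an unadjusted p under 0.05), quantile-normalized limma 10 lower, the nearest peak 0 higher, the highest peak 1 higher, and leaving out 1 library 0 to 13 lower and 0 to 1 higher. Of the values called under either setting, 2 turned direction: *Tcf7* was -1.07 at the nearest peak (adjusted p = 0.000819) and *Ccnd1* 0.02 at its highest peak (adjusted p = 0.942), each because a single peak replaces a sum of peaks that differ. Values near 0 that were called under neither setting, such as those of *Bcl9*, *Pygo2* and *Myc*, also changed sign under some settings. Otherwise the cause was not tested. No paired analysis was possible because the KL and KLG4m/m libraries share no replicate number. Peaks with few reads carry a counting error as large as the smaller differences described.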

Other observations

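Peaks inside the introns of *Tcf7l1* and *Tcf7l2* are assigned by the deposited annotation to gene models with Gm names, so they are not counted among the 19 peaks. There are 8 such peaks, and the 2 named here were chosen after their values were seen. In an intron of *Tcf7l2* a peak assigned to *Gm31734* (chromosome 19, 55781296 to 55781696) rose from 53 and 54 KL reads to 95 and 80 KLG4m/m reads, a log2 fold change of 0.77. In an intron of *Tcf7l1* a peak assigned to *Gm31249* (chromosome 6, 72706899 to 72707299) fell from 22 and 15 to 4 and 3, a log2 fold change of -2.31. The groups did not overlap at either peak. Both passed the threshold of edgeR over all peaks, and the other 6 did not. Among all peaks 5.52% were called lower and 3.10% higher, and nothing is read from the count.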
